A study of Homo sapiens with 6 samples.

Results

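PPP1R10, better known as PNUTS, is a nuclear scaffold that holds protein phosphatase 1 (PP1) at transcribed genes. PPP1R10 was described here together with its complex partners WDR82 and TOX4, the PP1 catalytic subunits PPP1CA, PPP1CB and PPP1CC, the nuclear PP1 regulator PPP1R8 and the stress-linked PP1 regulators PPP1R15A and PPP1R15B. All probe sets annotated with 1 of these 9 symbols and no other symbol were taken, which gave 17 of the 54613 probe sets in the table that are not controls, and 8 of the 9 genes. PPP1R8 had no such probe set and was not analysed here. All 17 probe sets were bright enough to be tested, with a mean over the arrays at or above 3.49 on the log2 scale, the median of all probe sets. PPP1R10 was selected on its array values, because its signal was lower after treatment in this same comparison. Its values are therefore given as a description without a p-value. Counts of called member probe sets under other settings include it, and nothing is read from its call. The other members were listed for their function.

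The cells were K562, an established line from a chronic myelogenous leukaemia, exposed for 3 h to DMSO, the vehicle (3 arrays), or to 25 nM cortistatin A (CA), which inhibits CDK8 and CDK19, the kinases of the Mediator complex (3 arrays). Wells were plated at 500000 to 800000 cells per mL, and nothing in the labels says that the wells were separate cultures. The p-values therefore measure the spread between these wells, which may be technical. Values are log2 signals of Affymetrix Human U133 Plus 2.0 arrays after RMA, and the comparison asks which transcripts differ between CA and DMSO.

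PP1 has little substrate choice of its own, and each catalytic subunit acts through a regulatory subunit that docks on it and directs it. In the PNUTS complex, PPP1R10 binds PP1 together with TOX4, a high mobility group box protein, and WDR82, a WD repeat protein that recognises phosphorylated RNA polymerase II. The complex removes phosphate from the polymerase tail and from the elongation factor SPT5, and it is known for slowing the polymerase at the ends of genes so that transcription can terminate. PPP1R15A (GADD34, made in response to stress) and PPP1R15B (CReP, made constantly) direct PP1 instead to the translation factor eIF2alpha and so restore protein synthesis.

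PPP1R10 was selected for its lower signal in CA. Neither its partner WDR82 nor PPP1R15A, whose fitted values were higher in CA, passed the test on the RMA values. The promoters of these 3 members are shown. Each is the 250 bases before the annotated start, 5′ to 3′ on the strand of the gene, from RefSeq on GRCh38.p14, and capitals mark the matches listed below. PPP1R10 lies at chr6:30617244-30617493 on the minus strand, WDR82 at chr3:52278650-52278899 on the minus strand, and PPP1R15A at chr19:48872171-48872420 on the plus strand.
PPP1R10: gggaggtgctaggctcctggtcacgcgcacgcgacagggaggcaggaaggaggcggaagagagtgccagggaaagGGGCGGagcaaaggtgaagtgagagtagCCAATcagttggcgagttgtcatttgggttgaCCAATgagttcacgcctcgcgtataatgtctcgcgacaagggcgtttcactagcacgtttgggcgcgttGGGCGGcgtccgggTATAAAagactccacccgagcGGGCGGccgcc
WDR82: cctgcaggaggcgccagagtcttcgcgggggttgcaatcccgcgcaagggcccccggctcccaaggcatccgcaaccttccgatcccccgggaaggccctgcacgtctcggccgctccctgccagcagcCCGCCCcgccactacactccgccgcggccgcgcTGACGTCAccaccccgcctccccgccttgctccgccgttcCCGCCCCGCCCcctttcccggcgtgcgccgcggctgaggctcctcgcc
PPP1R15A: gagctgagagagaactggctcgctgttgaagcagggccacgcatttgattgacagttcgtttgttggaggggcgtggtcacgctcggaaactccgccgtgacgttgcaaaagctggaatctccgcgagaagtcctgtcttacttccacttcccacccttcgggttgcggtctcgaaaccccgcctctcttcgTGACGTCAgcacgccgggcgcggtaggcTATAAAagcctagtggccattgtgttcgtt

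The PPP1R10 promoter held a TATA box, 2 CCAAT boxes and 3 GC boxes. Its TATAAA began at position -32 from the start site, and that of PPP1R15A at position -30. Across RefSeq promoter windows of 300 bases (250 before and 50 after the start), 11.5% of 35116 held TATAAA on either strand, and 2.17% held it on the strand of the gene with its first base between -35 and -25. Of the 8 listed genes with a window (PPP1CA had none in the table), only PPP1R10 and PPP1R15A held TATAAA. The WDR82 window had no TATAAA and held 3 GC boxes, of which the pair nearest the start overlap, and the cAMP response element TGACGTCA, which was also in PPP1R15A and in 1.85% of all windows. GC boxes (GGGCGG, 45.0% of windows) were in 7 of the 8 genes and CCAAT (34.6%) in 4, the other three being PPP1CC, PPP1R15B and TOX4. The remaining motifs were searched on both strands as well. These were the E box CACGTG (7.26% of windows), the AP-1 site TGANTCA (7.71%), the EGR site GCGTGGGCG (0.795%), the ETS site CCGGAAG (10.3%), the NRF1 site (5.78%), the YY1 site, the heat shock element core GAANNTTC (6.77%) and the serum response element (1.29%). None of these was in the PPP1R10 window. A match describes letters only.

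The 6 arrays correlated pairwise at 0.997 across probe sets. CA array 1 stood apart from the other 5 on the second principal component, at -19.0 against 0.338 to 7.20, so values of the member probe sets are also given without it. The actin control had a larger 3′ minus 5′ signal difference on the DMSO arrays (1.40 to 1.49 in log2) than on the CA arrays (1.14 to 1.31), with no overlap, while that of GAPDH overlapped (0.619 to 0.645 against 0.583 to 0.629). Its part in the results below was not tested. Erythroid markers of K562 were present, with 7 of 7 measured at or above the filter, among them the globin genes HBE1 at 13.27 and HBZ at 12.04 in DMSO. Of 9 measured markers of T, B, monocyte, epithelial, fibroblast and liver cells, 6 were at or above the filter as well. These were EPCAM (10.47 in DMSO), CD3D (9.08), COL1A1 (6.92), COL1A2 (5.86), CD79A (4.62) and CD3E (3.66), while CD14, CDH1 and ALB were below it. Passing the filter therefore does not by itself set the erythroid markers apart. The summed log2 signal of these 9 ran from 47.8 to 48.0 in DMSO and from 48.4 to 48.8 in CA. That of the 7 erythroid markers was higher in CA as well, by a narrow margin. It ran from 69.75 to 70.15 in DMSO and from 70.16 to 70.47 in CA. TAL1 (log2 change 0.22) and TFRC (0.12) had all CA arrays above all DMSO arrays, as held for 7.09% of all tested probe sets. The other erythroid markers overlapped between the groups, with GATA1 at 0.05, EPOR at 0.06, KLF1 at -0.06, HBZ at -0.01 and HBE1 at -0.01. The part of these shifts in the results was not tested.

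PPP1R10 transcripts were lower on the CA arrays by both of its probe sets. On the brighter one, 201703_s_at, the 3 DMSO arrays read 6.33, 6.48 and 6.46 and the 3 CA arrays 5.91, 5.85 and 5.99 in log2 signal. All CA values lay below all DMSO values, and the gap between the groups, 0.34, was wider than the spread within either group. The group means were 6.43 ± 0.08 in DMSO and 5.92 ± 0.07 in CA (SD, n = 3), a log2 change of -0.51 (SE 0.06), which is a signal 29.7% lower or a 1.42-fold difference. On the second probe set, 201702_s_at, the DMSO arrays read 5.61, 5.62 and 5.78 and the CA arrays 5.34, 5.49 and 5.42. Here too all CA values lay below all DMSO values, as held for 8.52% of all tested probe sets. The gap of 0.12 was narrower than the spread within either group, 0.17 in DMSO and 0.15 in CA. The change was -0.25 (SE 0.07), or 16.1% lower. The 2 probe sets read transcripts of the same gene, so they are not replicates, and their changes differed in size. Less PPP1R10 RNA in each cell and fewer cells expressing it cannot be told apart in these bulk samples.

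**Figure D1:**
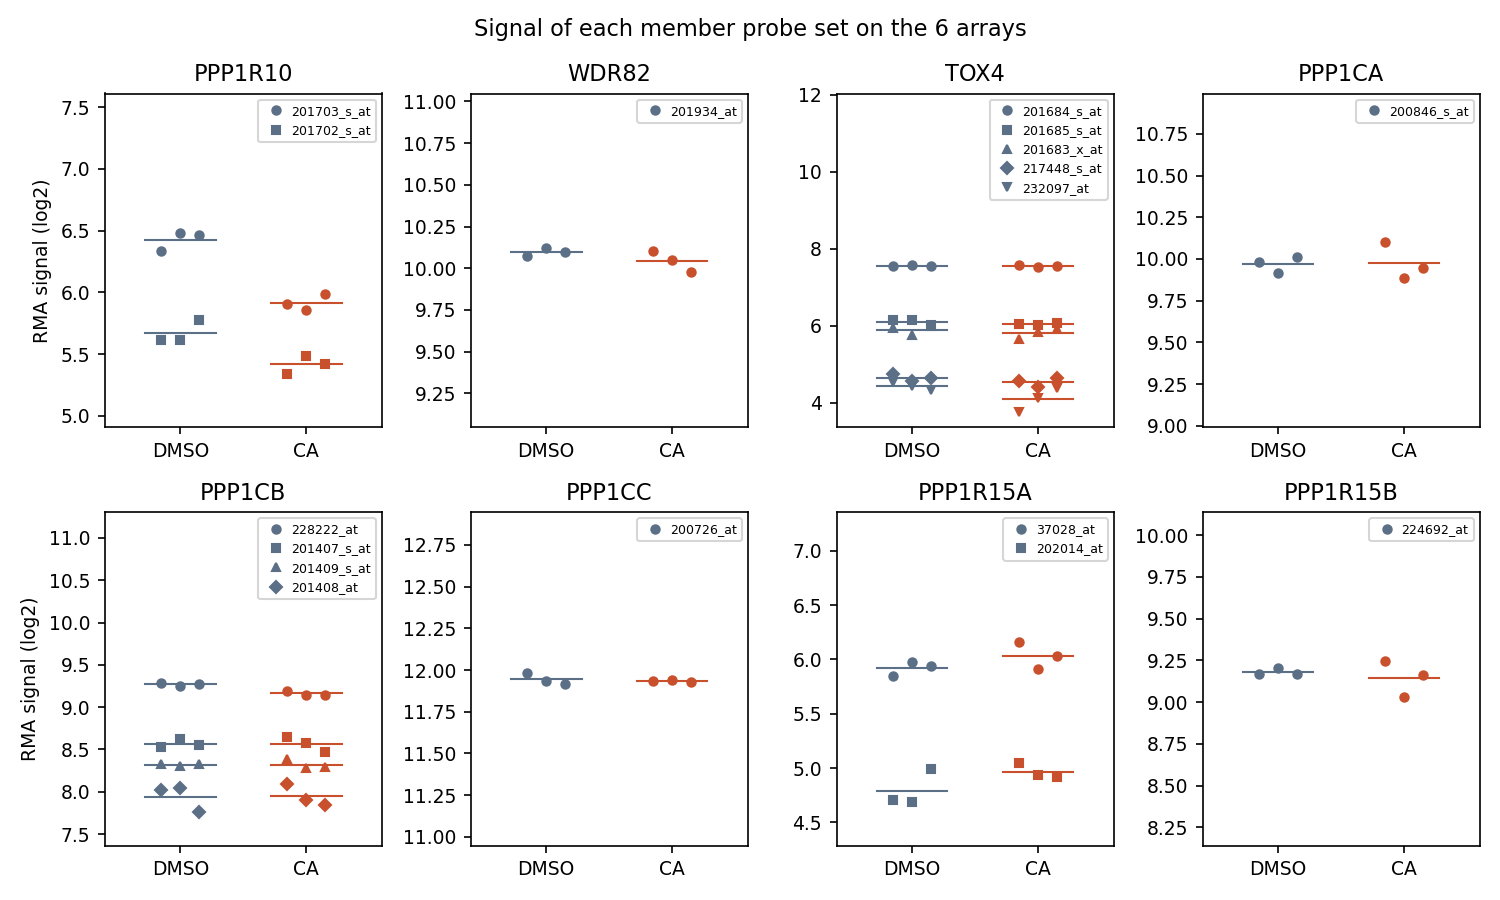
RMA signal (log2) of each probe set on each array, one panel per gene with its own axis; blue-grey points are DMSO, orange points CA, marker shapes are probe sets (the key shows the DMSO colour) and lines are means of 3 arrays. Both PPP1R10 probe sets read lower on all 3 CA arrays, while most other probe sets overlap between the groups.

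Among 12810 measured genes, each represented by its brightest tested probe set, 4 genes had a more negative fitted change than PPP1R10, and 16 genes, PPP1R10 included, had a change at least as large in either direction. PPP1R10 was selected on this same difference, so nothing is read from its rank, which rests on its brighter probe set. Without CA array 1 the PPP1R10 changes were -0.50 and -0.21 on the brighter and the second probe set. Leaving out each of the 6 arrays in turn gave -0.56 to -0.48 on the brighter probe set and -0.29 to -0.20 on the second.

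**Figure D2:**
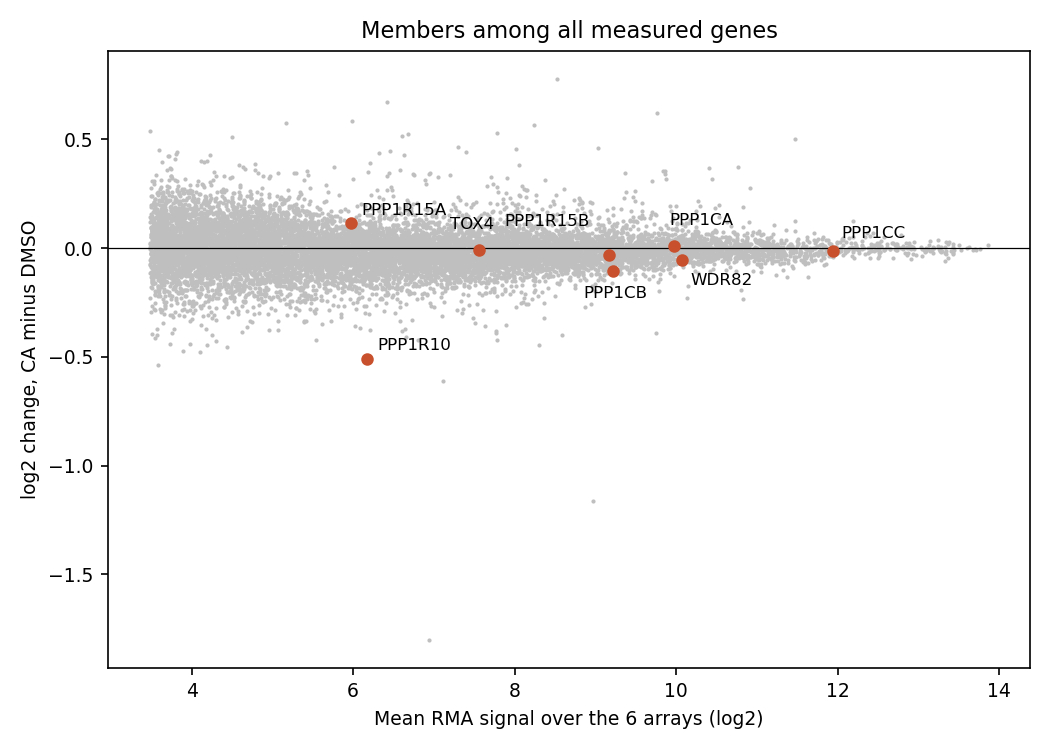
Change of each measured gene (log2, CA minus DMSO) against its mean RMA signal over the 6 arrays (log2), one grey point per gene by its brightest probe set, with the 8 measured members in orange. PPP1R10 lies at -0.51, and the other 7 members lie between -0.11 and 0.12.

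The partners of PPP1R10 in the complex did not pass the test. WDR82 read 10.07, 10.12 and 10.10 in DMSO and 10.10, 10.05 and 9.98 in CA. The groups overlapped, with a log2 change of -0.05 (95% confidence interval -0.17 to 0.06, limma adjusted p = 0.793). TOX4 on its brightest probe set, 201684_s_at, read 7.54, 7.59 and 7.56 in DMSO and 7.58, 7.52 and 7.56 in CA. These values also overlapped, with a change of -0.01 (-0.11 to 0.09, limma adjusted p = 0.965). Whether these changes differ from that of PPP1R10 was not tested. Without CA array 1 the values were -0.08 for WDR82 and -0.02 for 201684_s_at of TOX4.

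TOX4 was read by 4 further probe sets, all with fitted values below 0, from -0.06 to -0.33, and limma adjusted p between 0.573 and 0.796. The one with the most negative value, 232097_at, was also the dimmest. It read 4.54, 4.43 and 4.32 in DMSO and 3.77, 4.12 and 4.40 in CA, so that 1 CA array lay within the DMSO range. Its change was -0.33 (95% confidence interval -0.71 to 0.04), and without CA array 1, which gave its lowest value, it was -0.17. For 201683_x_at the change of -0.10 was -0.02 without that array, while 201685_s_at and 217448_s_at had -0.05 and -0.12. The 5 TOX4 probe sets share their target gene and are not independent measurements.

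The catalytic subunits of PP1 had fitted values close to 0 on 5 of their 6 probe sets. PPP1CA read 9.98, 9.92 and 10.01 in DMSO and 10.10, 9.88 and 9.95 in CA, an overlap, with a change of 0.01 (95% confidence interval -0.15 to 0.17, limma adjusted p = 0.982). Its fitted value ran from -0.05 without CA array 1 to 0.05 without CA array 2, so its sign depended on the array left out. PPP1CC read 11.98, 11.94 and 11.91 in DMSO and 11.93, 11.94 and 11.93 in CA, with a change of -0.01 (-0.11 to 0.09, limma adjusted p = 0.959). Its CA arrays lay inside the DMSO range, and without CA array 1 the change was also -0.01.

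PPP1CB, the catalytic subunit gene read by more than 1 probe set, had 4. On the brightest, 228222_at, the DMSO arrays read 9.28, 9.25 and 9.27 and the CA arrays 9.19, 9.15 and 9.15, without overlap. Its change was -0.11 (95% confidence interval -0.20 to -0.01), and it did not pass the test (limma adjusted p = 0.484). The other three probe sets of PPP1CB overlapped between the groups, with changes of 0.00 for 201407_s_at, 0.00 for 201409_s_at and 0.01 for 201408_at and limma adjusted p between 0.989 and 0.999. Whether 228222_at changed differently from them was not tested. Its change ran from -0.12 to -0.10 when each array was left out. Without CA array 1 the other three had -0.04, -0.04 and -0.07 in the order above.

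The regulators that direct PP1 to eIF2alpha had fitted values in the opposite direction or near 0, and none passed. PPP1R15A on 37028_at read 5.84, 5.98 and 5.94 in DMSO and 6.16, 5.92 and 6.03 in CA, with a change of 0.12 (95% confidence interval -0.06 to 0.29, limma adjusted p = 0.698). On its dimmer probe set, 202014_at, the DMSO arrays read 4.71, 4.69 and 4.99 and the CA arrays 5.05, 4.93 and 4.92, a change of 0.17 (-0.04 to 0.39, limma adjusted p = 0.626). On both probe sets of PPP1R15A the groups overlapped, and without CA array 1 the fitted values were 0.05 for 37028_at and 0.13 for 202014_at. PPP1R15B read 9.17, 9.20 and 9.17 in DMSO and 9.25, 9.03 and 9.16 in CA, an overlap with a change of -0.03 (-0.18 to 0.12, limma adjusted p = 0.913). The PPP1R15B value ran from -0.08 without CA array 1 to 0.02 without CA array 2, so its sign depended on the array left out.

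**Figure D3:**
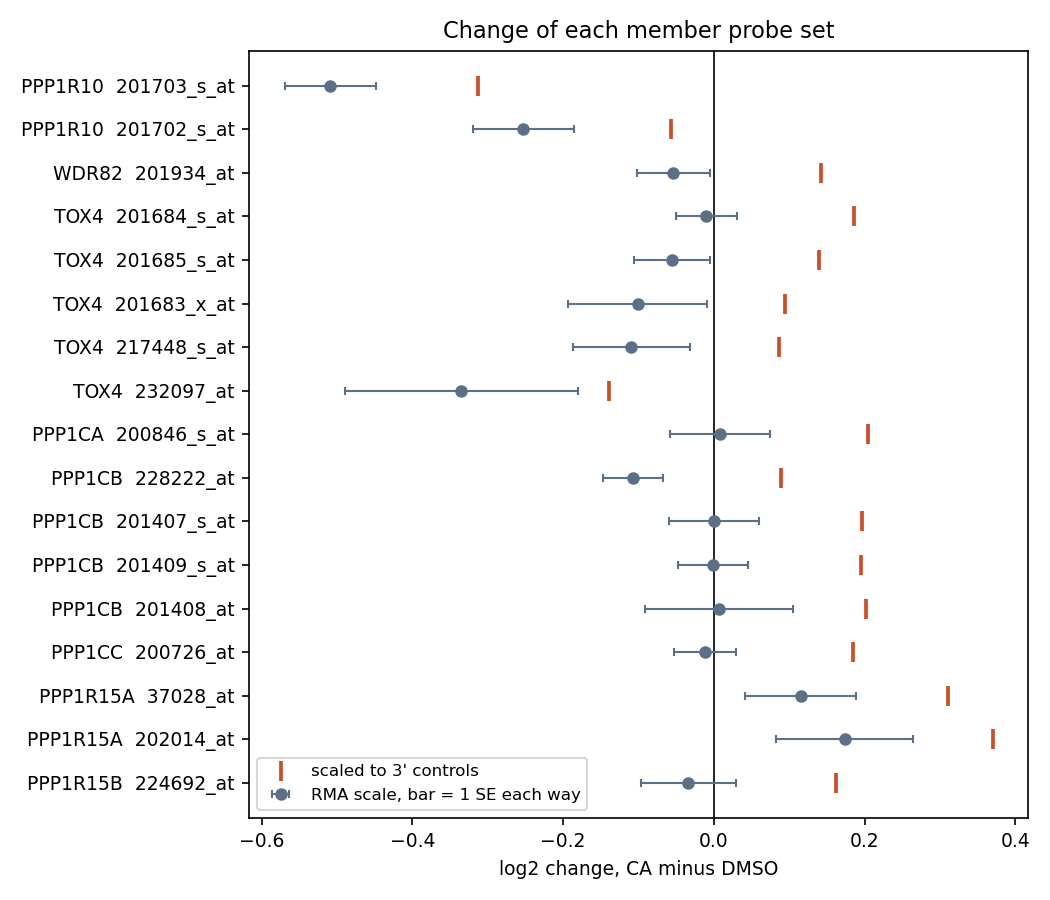
Log2 change, CA minus DMSO, of the 17 member probe sets; points are RMA values with bars of 1 standard error each way from the limma fit, and orange ticks the same changes after scaling to the 3′ ends of the control RNAs. On the RMA scale the PPP1R10 probe sets lie at -0.51 and -0.25, and the tick lies above 0 for 14 of the 15 other probe sets, TOX4 232097_at excepted.

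Of the 15 member probe sets other than those of PPP1R10, 0 passed the limma threshold of an adjusted p under 0.05 over all 27307 tested probe sets, where 0.0952% of all probe sets passed, 0.0439% with lower signal in CA. At an unadjusted p under 0.05 there was 1, 228222_at of PPP1CB, against 9.31% of all probe sets, 4.76% lower in CA. It was also the 1 probe set of the 15 whose groups did not overlap, with CA below DMSO, as held for 8.52% of all probe sets, and 0 had all CA above all DMSO, as held for 7.09%. The median change over the 15 was -0.01, as over all tested probe sets, 10 had fitted values below 0 and 5 above, and limma adjusted p ran from 0.484 to 0.999. With the prior variance allowed to depend on signal, limma called 0 of the 15, where 1.04% of all probe sets were called, and none of those bright enough was called with the filter at the upper quartile, where 1.19% were. Since the members were chosen with this comparison known, nothing is read from these counts.

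RMA sets all arrays to a common level, so changes are relative to the other transcripts. Scaling the arrays to the 3′ probe sets of the exogenous polyadenylated control RNAs would raise each log2 change by 0.20, so that all probe sets together have a median of 0.19 rather than -0.01. On that scale the PPP1R10 values were -0.31 on the brighter probe set and -0.06 (SE 0.08) on the second, which is smaller than its error, and the fitted values of WDR82, PPP1R15B, the catalytic subunits and 4 of the 5 TOX4 probe sets were above 0. PPP1R15A had 0.31 and 0.37 there and passed on both probe sets (limma adjusted p = 0.0375 and 0.0346), where 13.5% of all probe sets passed upward. Scaling to the 5′ probe sets of the same controls would add 0.04, with PPP1R10 at -0.47 on the brighter probe set. No member probe set, those of PPP1R10 included, was called by limma on that scale. Which of these scales is closer to the RNA content of the cells was not tested.

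PPP1R10 shares its upstream region with MRPS18B, a gene for a mitochondrial ribosomal protein that starts 597 bases away on the opposite strand, per RefSeq on GRCh38.p14. MRPS18B read 10.62, 10.65 and 10.67 in DMSO and 10.72, 10.54 and 10.57 in CA. The groups overlapped, and its change of -0.04 (95% confidence interval -0.17 to 0.10, limma adjusted p = 0.899) did not pass. TOX4 likewise has a divergent neighbour, RAB2B, a small GTPase gene, which had a change of -0.02 (-0.25 to 0.20, limma adjusted p = 0.966). The opposite-strand transcript PPP1CB-DT beside PPP1CB had no value here, and no other listed gene with a promoter window had an opposite-strand start within 1000 bases. PPP1CA had no window and was not searched.

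The 5 genes whose array values lay nearest to those of PPP1R10 were ARRDC4, DNAJB1, DNAJB4, HEXIM1 and H1-10. Nearness was the root mean square difference over the 6 arrays after each gene was centred on its own mean, so that direction and size both count. It was 0.06 for ARRDC4, an arrestin domain protein related to TXNIP, and 0.07 for both DNAJB1 and DNAJB4, co-chaperones of HSP70. For HEXIM1, which holds P-TEFb inactive, and for H1-10, a linker histone, it was 0.09. Their changes were -0.41 (SE 0.06) for ARRDC4, -0.40 (SE 0.05) for DNAJB1, -0.61 (SE 0.05) for DNAJB4, -0.45 (SE 0.05) for HEXIM1 and -0.42 (SE 0.08) for H1-10. On all 5, every CA array lay below every DMSO array, which the choice of the nearest genes largely fixes.

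**Figure D4:**
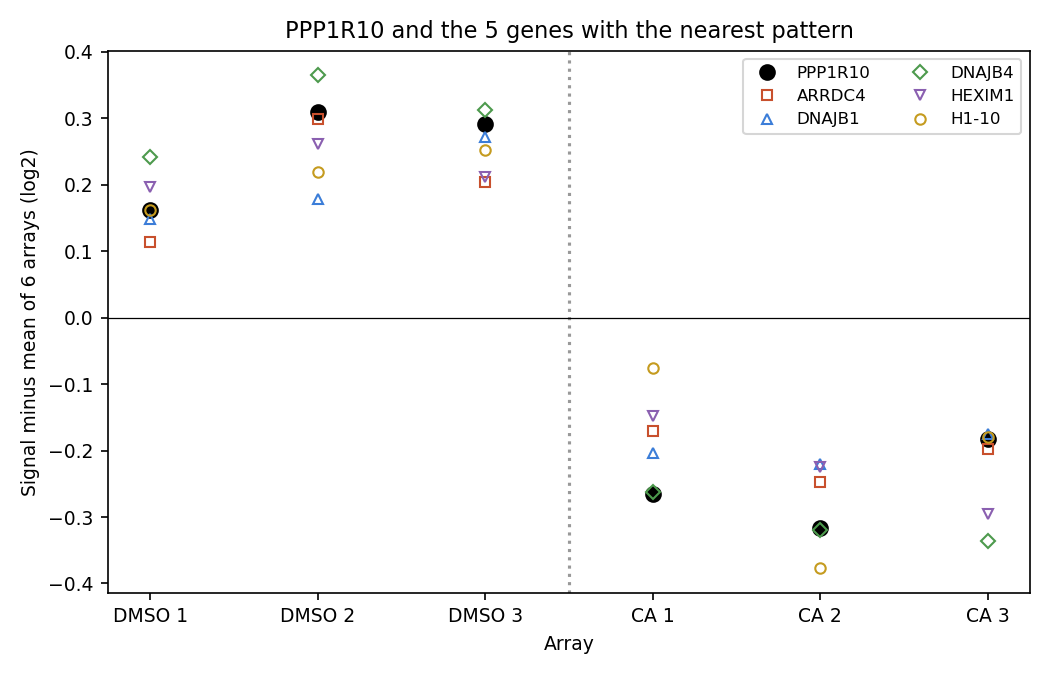
Signal on each array minus the mean of the 6 arrays (log2) for PPP1R10 (filled black circles) and the 5 genes nearest to it (open markers); the dotted line parts DMSO from CA arrays. All 6 genes lie above 0 on the DMSO arrays and below 0 on the CA arrays.

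Genes around the phosphatase were compared in 9 lists, in which 111 genes were measured. By limma 0 of the 111 passed, against 0.0859% of all measured genes, and 9 were at an unadjusted p under 0.05, where 8.61% of all measured genes were. With signal-dependent prior variance, limma called 4, DDIT3, HEXIM1, CLP1 and INTS6, against 1.23% of all measured genes. The fitted value was below 0 for 65 of the 111, and for 56.5% of all measured genes. The median change over the 111 was -0.02, against -0.01 over all measured genes. Since the lists were chosen with earlier results of these data known, nothing is read from these counts or from their comparison with all measured genes.

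Other PP1 regulators gave no calls. Of 12 measured genes listed here as nuclear PP1 regulators, 0 were at an unadjusted p under 0.05 by limma, and their median was 0.00. Where their proteins lie in the cell was not tested. The brightest, the nucleolar protein gene RRP1B, had 0.05 (SE 0.05), and the extremes were PPP1R35 at 0.12 (SE 0.06) and PPP1R7 at -0.06 (SE 0.06). Of 24 measured cytoplasmic targeting and inhibitor subunits, 16 had fitted values below 0 and 8 above, with a median of -0.03. PPP1R14B, the brightest, had 0.00 (SE 0.06), PPP1R12B, a myosin phosphatase targeting subunit, 0.17 (SE 0.09), and PPP1R21 -0.27 (SE 0.09). The list had 2 genes at an unadjusted p under 0.05, PPP1R21 (limma adjusted p = 0.452) and PHACTR2 at 0.16 (limma adjusted p = 0.391), which was named after its value was seen. The other PPP family catalytic subunits, 8 measured, ran from PPP3CB at -0.08 to PPP3CA at 0.19, and PPP2CA, the brightest, had 0.03.

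In the pathway that PPP1R15A and PPP1R15B act on, 0 of 16 measured genes passed by limma and 2 were at an unadjusted p under 0.05. DDIT3, the stress-induced transcription factor CHOP, which is known to raise PPP1R15A transcription, read 7.68 ± 0.07 in DMSO and 7.33 ± 0.09 in CA (SD, n = 3), without overlap. Its change was -0.34 (SE 0.06, limma adjusted p = 0.193, or 0.00757 with signal-dependent prior variance). EIF2B5, a subunit of the eIF2 exchange factor named after its value was seen, had -0.11 (SE 0.04), and EIF2B2 had the highest value, 0.07 (SE 0.04). EIF2S2, the brightest, had -0.03 (SE 0.04), and the median of the list was -0.02.

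Among RNA polymerase II pausing and elongation factors, the machinery on which the PNUTS complex acts, 0 of 13 measured genes passed by limma and 1, HEXIM1, was at an unadjusted p under 0.05. HEXIM1 read 8.52 ± 0.03 in DMSO and 8.08 ± 0.07 in CA (limma adjusted p = 0.0704). CDK9, the kinase of P-TEFb, had 0.18 (SE 0.09), and SUPT4H1, the partner of SPT5, had -0.03 (SE 0.05). Of 18 measured genes of mRNA 3′ end processing and termination, 0 passed by limma and 2 were at an unadjusted p under 0.05. CLP1, a kinase of the cleavage machinery, had 0.21 (SE 0.04, limma adjusted p = 0.223, or 0.00765 with signal-dependent prior variance), and CSTF1, named after its value was seen, 0.14 (SE 0.04). The lowest was RBBP6 at -0.08 (SE 0.05), and PAPOLA, the poly(A) polymerase gene and the brightest, had 0.04 (SE 0.04).

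Of 9 measured genes of the other complexes that hold WDR82, 0 passed by limma and 1 was at an unadjusted p under 0.05. This was ZC3H4, which with WDR82 curbs non-coding transcription, at 9.29 ± 0.06 in DMSO and 9.13 ± 0.04 in CA, a change of -0.16 (SE 0.05, limma adjusted p = 0.376). SETD1A, a histone H3 lysine methyltransferase, had 0.11 (SE 0.06), and ASH2L, the brightest, 0.03 (SE 0.04). Of 11 measured genes of other RNA polymerase II phosphatases, 0 passed by limma and 1 was at an unadjusted p under 0.05. INTS6, the Integrator subunit that recruits protein phosphatase 2A, read 7.26 ± 0.05 in DMSO and 6.95 ± 0.07 in CA. Its change was -0.31 (SE 0.05, limma adjusted p = 0.173, or 0.0123 with signal-dependent prior variance), while CTDP1, a phosphatase of the polymerase tail, had 0.13 (SE 0.07). TOX3, the one measured relative of TOX4, had -0.03 (SE 0.13).

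**Figure D5:**
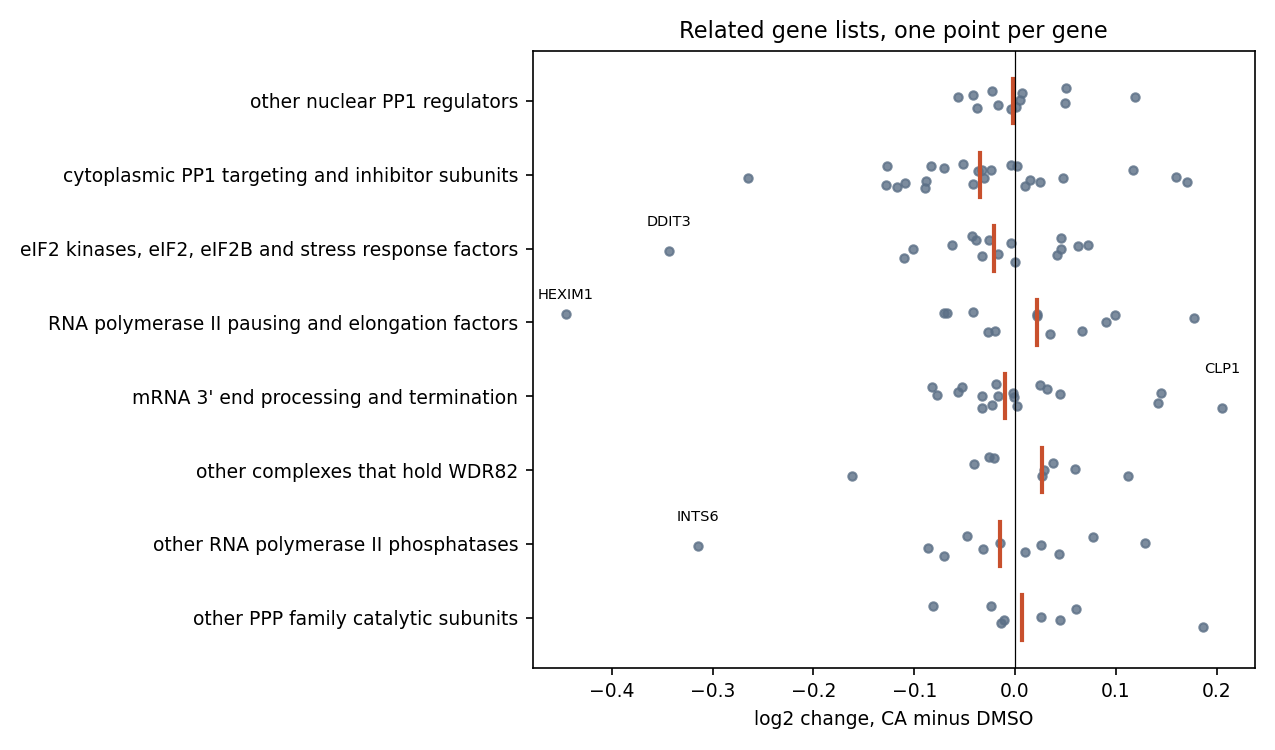
Log2 change, CA minus DMSO, of the measured genes of 8 related lists, one point per gene (vertical scatter is for display), with orange bars at list medians; named genes passed the limma threshold with signal-dependent prior variance. HEXIM1, DDIT3 and INTS6 lie at -0.45, -0.34 and -0.31, and CLP1 at 0.21.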

How the data were processed

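The authors deposited 1 table of log2 signals for 54675 probe sets on 6 arrays, made with RMA in the affy package per the submitters' processing notes, with versions and genome build not given in the sources used here. Probe level data were not used here. Left out were 62 control probe sets. Symbols came from the platform annotation: 41091 probe sets had 1 symbol, 1801 several and 11721 none, and 41037 of the first matched a RefSeq gene ID. Probe sets whose 6-array mean was at or above 3.49, the median, were tested: 27307. CA was compared with DMSO by limma 3.58.1 (lmFit and eBayes, R 4.3.3), 2-sided, without a block. The p-values were Benjamini-Hochberg adjusted over all 27307, with a threshold of 0.05. The fit was also run on simulated data with independent noise and no array effects, which cannot show that the threshold holds on these arrays. The number of arrays, 3 against 3, limits the precision; the median SE of a change was 0.07. Exact permutation of 3 against 3 allows no p below 0.1, so none is given. Named were all member probe sets; from each list the brightest gene, both extremes and called genes; the 5 genes nearest to PPP1R10; and divergent neighbours. Members, lists and tests were chosen with earlier results of these data known. Samples with the same replicate number did not deviate together (r of -0.07, 0.01 and 0.06 over probe sets), so the numbers were not taken as pairs. Alternatives were the variance model, the filter, scaling, array weights, the replicate block, probe set type and each array left out. Figures used matplotlib 3.10.9.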

Additional observations from a re-analysis of the deposited data

How the results depend on the processing

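The number of probe sets called by limma, 26, depended on the settings: 285 with signal-dependent prior variance, 5 without a filter, 162 when only the probe sets above the upper quartile were tested, 3691 with scaling to the 3′ controls, 1 without probe sets named _s_at, _x_at or _a_at, and 2 to 5 with an array left out. With the replicate block it was 0 (2485 at an unadjusted p under 0.05), and the PPP1R10 change was -0.51 (SE 0.06) with and without that block; the arrays share only a number, and not every array correlated best with its own. Of the member probe sets 0 were called, but 1 with signal-dependent variance and 1 when only probe sets above the upper quartile were tested, in both cases the brighter one of PPP1R10, which was selected on this comparison and from whose call nothing is read. With 3′ control scaling it was 3, that probe set and both of PPP1R15A; of the related genes 0, but 4 with the signal-dependent variance. On the brighter probe set the PPP1R10 change was below 0 in every alternative that gave a value, and -0.31 with 3′ control scaling. On the second probe set it was -0.06 (SE 0.08) with that scaling. All alternatives reuse the arrays on which PPP1R10 was selected, so nothing is read from the sign. The PPP1R10 change could not be given without _s_at probe sets, since both probe sets of the gene are of that kind. By Pearson correlation 0 of the 5 nearest genes were the same. Why the results differed between settings was not tested.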

Other observations

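By Pearson correlation over the 6 arrays, a measure that ignores the size of a change, the genes nearest to PPP1R10 were IKZF3, STX8, CHPF2, E2F2 and ALKBH3. Their r lay between 0.989 and 0.994, and their log2 changes ran from -0.26 for IKZF3 to -0.05 for ALKBH3. The arrays of the 2 groups form 2 clusters for each of these genes, so r mainly reflects the group difference, and it is given without a p.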
